A study of Mus musculus with 4 samples.

Results

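The genes described are Angptl1, Angptl2, Angptl4 and Angptl7, 4 angiopoietin-like genes of the 24532 genes in an expression table of mouse knee cartilage. They were chosen by their values in these libraries, because Angptl1 had one of the deepest falls after injury in young cartilage and Angptl7 moved in opposite directions at the 2 ages. The injury ratios of Angptl1 and Angptl7 are therefore given as a description. Angptl2 and Angptl4 were taken with them as family members.

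RNA sequencing covered 4 groups of wild-type C57BL/6 mice, which were sham and injured cartilage of young and of adult mice, with 1 library each. Young mice were 3 weeks old, and adult mice were 12 weeks old by one label, 14 weeks by another and 10 weeks in the study's text. The study's text describes a full-thickness cartilage injury made in the femoral groove, whereas the labels speak of surgery that destabilizes the medial meniscus. Tissue was taken at day 3, except that the adult sham label gives days 3 to 14, so that the surgery and the day of the adult sham library are uncertain. Cartilage of 5 sham or 10 injured mice was pooled for a library, and no treatment other than surgery was named for any group. A pool hides the spread between mice, and with 1 library per group no test was possible and no error is given for any value.

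Angiopoietin-like proteins are secreted glycoproteins with a coiled-coil stretch near the N-terminus and a fibrinogen-like domain at the C-terminus. They resemble the angiopoietins, ligands of the endothelial receptor Tie2, but are not known to bind that receptor themselves. Angptl1 is known as an inhibitor of vessel growth, Angptl2 as a pro-inflammatory factor that binds integrins and the immune receptor Pirb, Angptl4 as an inhibitor of lipoprotein lipase, and Angptl7 as a matrix-associated protein of the cornea and the outflow tissue of the eye.

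On GRCm38.p6, the RefSeq assembly of the build mm10 that the submitters' notes name, Angptl1 lies at chr1:156839023-156861078 on the plus strand with 5 exons. Angptl2 lies at chr2:33215951-33247725 on the plus strand with 5 exons. Angptl4 lies at chr17:33774900-33781575 and Angptl7 at chr4:148495181-148500462, both on the minus strand, with 7 and 5 exons. Each of Angptl1, Angptl2 and Angptl7 sits inside a larger gene on the opposite strand, namely Ralgps2, Ralgps1 and Mtor, with 0 exonic bases shared inside the RefSeq span. The hosts stayed at 0.231 to 1.10 FPKM for Ralgps2, 0.582 to 1.302 FPKM for Ralgps1 and 4.28 to 5.16 FPKM for Mtor, and on the scale of FPKM + 1, 0 of the 8 host and neighbouring genes differed by 2-fold or more in any comparison. On the plain FPKM scale Ralgps2 was lower in adult sham, at 0.231 FPKM, than in young sham, at 1.05 FPKM, as was Angptl1. In adult injured cartilage Ralgps2 was higher than in adult sham, at 0.577 FPKM, where Angptl1 was lower. Ralgps1 was lower in adult sham, at 0.582 FPKM, than in young sham, at 1.302 FPKM, where Angptl2 was higher. FPKM are fragment numbers divided by the length of the transcript and the size of the library. At most 0.846% of the 31-base words of a member's transcripts occurred in another gene on the same strand. On the opposite strand 16.8% of the words of Angptl1 occurred in another gene, against at most 0.893% for the other members. These words are of a GENCODE transcript of Angptl1 with 2651 bases, of which 2190 lie inside the RefSeq span. Where in it the shared words lie was not examined. The libraries kept the strand, but whether the values were calculated with it is not given in the sources used here. Without it reads of those shared words could not be told apart between Angptl1 and a gene on the other strand.

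The RefSeq promoter table held 3 of the 4 genes, and their promoters are shown because Angptl1 and Angptl2 had negative injury ratios at both ages, short of 2-fold for Angptl2 in young mice, whereas Angptl7 moved in opposite directions. Each stretch runs 5′ to 3′ on the strand of the gene, from 250 bases before to 50 bases after the start site that the table uses, which for Angptl2 lies slightly inside the span given above, and capitals mark the short form TGACG of the cyclic AMP response element or, where it lies on the other strand, its complement. They cover chr1:156838773-156839072 on the plus strand, chr2:33215711-33216010 on the plus strand and chr4:148500413-148500712 on the minus strand of GRCm38.p6.
Angptl1: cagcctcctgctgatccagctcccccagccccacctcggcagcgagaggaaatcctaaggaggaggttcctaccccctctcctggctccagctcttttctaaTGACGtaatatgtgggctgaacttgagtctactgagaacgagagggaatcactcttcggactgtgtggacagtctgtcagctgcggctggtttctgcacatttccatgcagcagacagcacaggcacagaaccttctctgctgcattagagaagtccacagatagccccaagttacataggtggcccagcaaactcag
Angptl2: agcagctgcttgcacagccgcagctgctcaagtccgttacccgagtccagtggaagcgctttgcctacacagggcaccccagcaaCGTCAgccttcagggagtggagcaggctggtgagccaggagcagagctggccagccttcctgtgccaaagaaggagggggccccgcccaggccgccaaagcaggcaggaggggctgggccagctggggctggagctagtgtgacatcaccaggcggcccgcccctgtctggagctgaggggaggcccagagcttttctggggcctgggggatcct
Angptl7: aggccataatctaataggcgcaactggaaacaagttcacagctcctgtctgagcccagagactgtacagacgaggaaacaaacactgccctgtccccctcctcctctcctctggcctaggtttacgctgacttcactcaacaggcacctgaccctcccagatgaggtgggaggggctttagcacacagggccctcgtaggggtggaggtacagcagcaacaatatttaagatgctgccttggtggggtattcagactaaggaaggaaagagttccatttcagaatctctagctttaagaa
The letters TGACG occurred 1 time in the Angptl1 promoter, 1 time in the Angptl2 promoter and 0 times in the Angptl7 promoter, and 20.8% of 32851 RefSeq promoters held it on either strand. The letters GGGCGG of the Sp1 box occurred 2 times in the Angptl2 promoter and 0 times in the others, beside 35.7% of all promoters. The letters TATAAA of the TATA box were in none of the 3 windows, against 13.6% of all promoters. None of the 3 held the AP-1 letters TGANTCA, which 7.81% of promoters did. The hypoxia response core ACGTG, in 19.6% of promoters, and the CCAAT box, in 37.4%, were also in none. The E-box letters CANNTG, which 72.3% of promoters held, occurred in all 3. G and C made up 54.3%, 66.7% and 51.3% of the bases of Angptl1, Angptl2 and Angptl7. These matches are letters in a window and no measurement of binding.

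The levels of Angptl1, Angptl2 and Angptl7 differed more between young and adult mice in sham than in injured cartilage, and Angptl4 was higher after injury at both ages. For Angptl1 and Angptl7 the choice by injury ratios, which use all 4 libraries, bears on this, and it is a description only. Ratios are log2 ratios of FPKM + 1 between single libraries, a scale on which the change of genes with low values is understated, and a gene counted as higher or lower at 2-fold or more. In young mice 2 of the 4 genes were higher after injury and 1 was lower, beside 4.57% of 18181 genes higher and 1.27% lower. In adult mice 1 was higher and 3 were lower, beside 6.90% higher and 1.46% lower. The rule used the injury ratios, so that nothing is read from these counts. Over the 10891 genes that reached 1 FPKM in every library, adult injury had a median log2 ratio of 0.23 and the adult sham library one of −0.30 against the young, so that ratios of these comparisons are best read relative to those medians. Median-of-ratios scaling, which removes that shift, gave 4.76% higher and 2.5% lower genes for adult injury, quantile normalization gave 3.99% and 2.69%, and rescaling to a common sum (TPM) gave 11% and 1.71%. For young injury TPM gave 5.35% higher and 2.37% lower.

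**Figure D1:**
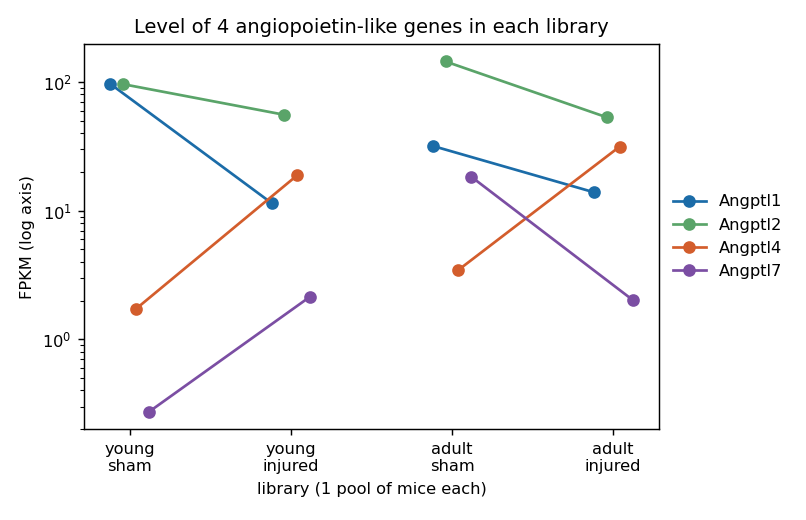
FPKM on a log axis of the 4 genes in the 4 libraries, 1 point per library, with a line joining sham to injured at each age and points set slightly apart sideways. Angptl7 spans 0.273 to 18.3 FPKM across the sham libraries and 2.03 to 2.15 FPKM across the injured ones.

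Angptl1, the inhibitor of vessel growth, was highest in young sham cartilage. It stood at 96.7 FPKM in young sham, 11.5 FPKM in young injured, 31.9 FPKM in adult sham and 13.9 FPKM in adult injured cartilage. Both injured libraries were below both sham libraries, and the young sham library stood apart from the other 3. The ratio was −2.97 in young mice, 8.43-fold lower in FPKM, and −1.14 in adult mice, 2.29-fold lower. Of the 18181 genes, 5 had a ratio as low or lower in young mice and 198 in adult mice, the gene itself included.

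The place of Angptl1 near the bottom of the young injury ratios was part of the rule. Where the mean over the libraries was 5 FPKM or more it ranked 3 in the fall, after Hist2h2aa2 at −4.86 and Hhip, an inhibitor of hedgehog signalling, at −2.998. The next gene was Mdm4, a regulator of p53, at −2.79. No replicate error is at hand to judge the gaps between these neighbours.

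Angptl2, the integrin and Pirb ligand, was the most even of the 4 and the most abundant in 3 of the 4 libraries. Its level was 96.2 FPKM in young sham, 55.6 FPKM in young injured, 144.4 FPKM in adult sham and 53.2 FPKM in adult injured cartilage. Both injured libraries were again below both sham libraries, and they differed little from each other. The ratio was −0.78 in young mice, short of 2-fold, and −1.42 in adult mice, 2.71-fold lower in FPKM. Of the 18181 genes, 452 had a ratio as low or lower in young mice and 120 in adult mice.

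Angptl4, the inhibitor of lipoprotein lipase, was low in sham cartilage and higher after injury at both ages. It measured 1.73 FPKM in young sham, 18.9 FPKM in young injured, 3.46 FPKM in adult sham and 31.5 FPKM in adult injured cartilage. Both injured libraries were above both sham libraries. The ratio was 2.86 at each age, which is 10.9-fold and 9.09-fold higher in FPKM. In young mice 74 of the 18181 genes had a ratio as high or higher, and in adult mice 49. Angptl4 made up 0.886% of the summed FPKM of the 4 genes in young sham and 1.75% in adult sham, against 21.4% and 31.3% in the injured libraries.

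Angptl7, the eye and matrix protein, was prominent only in the adult sham library among the 4. It was at 0.273 FPKM in young sham, 2.15 FPKM in young injured, 18.3 FPKM in adult sham and 2.03 FPKM in adult injured cartilage. The sham libraries lay at both extremes, and both injured libraries lay between them. The ratio was 1.31 in young mice, 7.86-fold higher in FPKM, and −2.68 in adult mice, 9.05-fold lower. The young sham level was low, and if 1 step of the lowest values, which fitted a grid loosely, is 1 fragment it rested on about 15.5 fragments, against about 121, 1220 and 112 in young injured, adult sham and adult injured cartilage. The adult sham library, on which the fall in adult mice rests, is the one with the uncertain day.

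Going up in young and down in adult mice by 2-fold or more was shared by 8 of the 18181 genes, or 0.0440%, and the rule took Angptl7 for it. Besides Angptl7 these were Amd1, Cacng1, Cnbp, Grem1, Hbb-bs, Mir5625 and Mir8114, all named after their values were seen. Grem1, a secreted BMP antagonist, stood at 4.86, 12.2, 49.98 and 19.9 FPKM in the young sham and injured and the adult sham and injured libraries. Hbb-bs, an adult beta-globin gene of red cells, stood at 105.7, 782.9, 2868 and 83.4 FPKM in the same order. Between adult and young sham Hbb-bs differed from the other erythroid markers. Of the 9 with a row 7 were lower there and 1, Hbb-bs itself, was higher, beside 10.6% and 2.66% of all genes. Their median was −1.88. Cacng1, Grem1, Hbb-bs and Mir8114 were highest in adult sham cartilage, as was Angptl7, whereas Amd1, Cnbp and Mir5625 were highest in young injured cartilage.

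**Figure D2:**
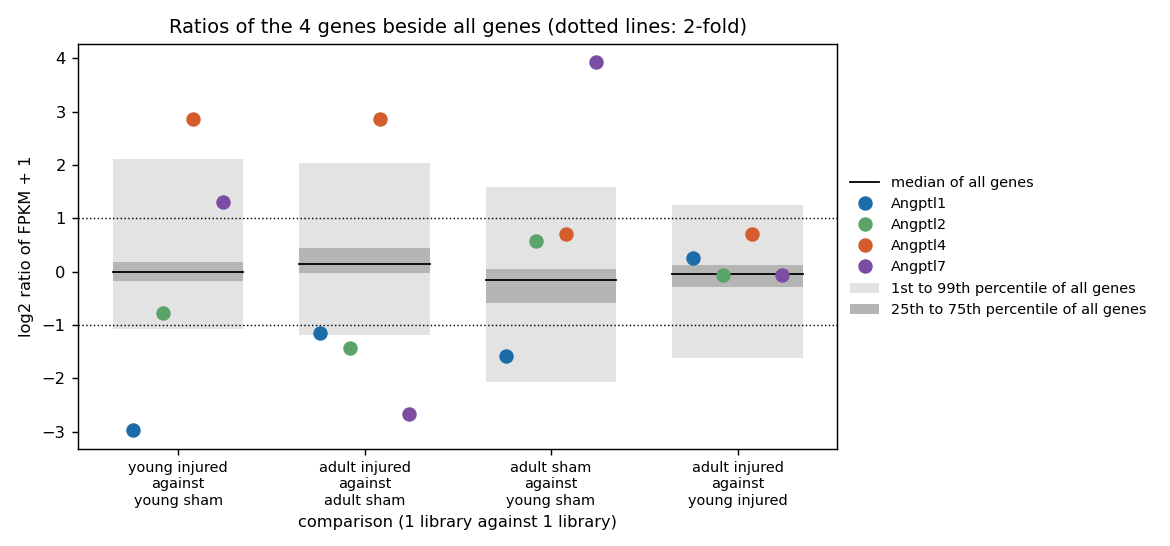
log2 ratios of FPKM + 1 of the 4 genes (coloured points) in 4 comparisons of single libraries, over the 25th to 75th and the 1st to 99th percentile of all genes (dark and light bars), with the median of all genes as a line and 2-fold as dotted lines. Between the injured libraries all 4 genes lie within 2-fold, from −0.06 to 0.71.

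The sham libraries differed in age and, by the label, perhaps in day, which cannot be told apart. Between adult and young sham, Angptl7 was higher by 3.92 on the log2 scale, 67.1-fold in FPKM, and Angptl1 was lower with a ratio of −1.57, 3.03-fold in FPKM. Angptl2 at 0.58 and Angptl4 at 0.71, 2.005-fold in FPKM, were short of 2-fold on the scale of FPKM + 1. That is 1 of 4 genes higher and 1 lower, beside 2.66% of all genes higher and 10.6% lower. The ratio of Angptl7 uses the same sham values as the injury ratios it was chosen for, so that nothing is read from its size. After median-of-ratios scaling 5.35% of genes were higher and 5.55% lower, and after quantile normalization 5.04% and 5.27%.

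Between adult and young injured cartilage 0 of the 4 genes were higher and 0 were lower by 2-fold, beside 1.80% and 3.09% of all genes. With TPM these shares were 3.44% and 3.4%, and after quantile normalization 2.24% and 2.55%. The ratios were 0.26 for Angptl1, −0.06 for Angptl2, 0.71 for Angptl4 and −0.06 for Angptl7. The sign of values so near 0 changed with the scaling for some of these genes and none is read here as a difference. Summed over the 4 genes, the level was 194.8 FPKM in young sham and 198.1 FPKM in adult sham, and 88.1 and 100.6 FPKM in the injured libraries. Angptl1 made up 49.6% of that sum in young sham and 16.1% in adult sham, but 13.0% and 13.8% in the injured libraries. Angptl2 made up 49.4%, 63.1%, 72.9% and 52.9% in the young sham and injured and the adult sham and injured libraries.

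The injury ratio of adult mice minus that of young mice was 1.83 for Angptl1, −0.64 for Angptl2, −0.00 for Angptl4 and −3.98 for Angptl7. As the ratios of the injured libraries were near 0 for Angptl1, Angptl2 and Angptl7, these differences came mostly from the sham libraries. Angptl7 was chosen for this difference. Angptl1 had the lowest injury ratio of the 4 in young mice and Angptl7 in adult mice, and Angptl4 had the highest at both ages.

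Angptl6 and Angptl8, also of the family, were low or at 0. Angptl6, a factor of metabolism and vessel growth, measured 0.978, 1.15, 2.11 and 1.94 FPKM in the young sham and injured and the adult sham and injured libraries. Angptl8, a factor in the control of lipoprotein lipase, was at 0.177 and 0.114 FPKM in the young libraries and listed at 0 in the adult ones. On the scale of FPKM + 1 neither gene differed by 2-fold in any comparison, although the plain FPKM of Angptl6 in adult sham was more than 2-fold that in young sham.

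Of the lipoprotein lipase system, the target of Angptl4, 15 of 16 genes with a row were above 0 in a library. In young mice 4 were higher after injury and 0 lower, beside 4.57% and 1.27% of all genes. In adult mice 5 were higher and 0 lower, beside 6.90% and 1.46%. The median log2 ratios were −0.00 and 0.60, beside 0 and 0.14 over all genes tested. These shares and medians of all genes also stand beside the list and marker counts and medians given below for injury at the 2 ages. Lpl, the lipase itself, stood at 5.53 FPKM in young sham, 17.2 FPKM in young injured, 3.65 FPKM in adult sham and 10.1 FPKM in adult injured cartilage. Its ratios of 1.48 and 1.25 thus had the same sign as those of its inhibitor Angptl4. Gpihbp1, which holds the lipase on capillary endothelium, had ratios of 1.70 and 1.04. Apoc2, the activator of the lipase, had 2.33 and 2.39, and Cd36, a fatty acid transporter, had 2.76 and 2.27. Furin, a protease that cleaves Angptl4, had −0.02 and 0.60. Sel1l, a part of the quality control of the endoplasmic reticulum that the lipase needs, had −0.46 and 1.36.

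Of 11 reported receptors of angiopoietin-like proteins, 3 were higher after injury in young mice and 5 in adult mice, beside 4.57% and 6.90% of all genes. At either age 0 were lower, beside 1.27% and 1.46%, and the medians were 0.40 and 0.62. Pirb, the immune receptor of Angptl2, stood at 2.59 and 23.6 FPKM in young sham and injured cartilage and at 3.19 and 20.3 FPKM in adult sham and injured cartilage. Its ratios were 2.78 and 2.35, against −0.78 and −1.42 for Angptl2. Lilrb4a, a related inhibitory receptor of myeloid cells, had ratios of 3.65 and 3.08, and the endothelial cadherin Cdh5 had 1.89 and 1.72. The integrin chains Itga5 and Itgb1, which form the fibronectin receptor, had 0.27 and 0.09, and 0.05 and 0.24. Itgb3 had 0.85 and 1.42. The rest of the 11 were Itgav at −0.30 and 0.54, Itgb5 at −0.04 and −0.66, Cdh11 at 0.40 and 0.62, Sdc4 at −0.83 and −0.49, and Tlr4 at 0.75 and 1.09.

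Of 5 angiopoietins and Tie receptors, young injury left 2 higher and adult injury 3, with 0 lower, beside 4.57% and 6.90% of all genes higher, with medians of 0.89 and 1.16. Endothelial markers were higher in 7 of 10 genes at both ages, and their part in these values was not tested. Angpt1, the agonist of Tie2, measured 5.32, 8.70, 0.281 and 2.25 FPKM in the young sham and injured and the adult sham and injured libraries, a ratio of −2.30 between adult and young sham. Angpt2, its antagonist on many vessels, measured 0.161, 1.95, 0.197 and 1.67 FPKM. Tie1 had ratios of 1.36 and 1.298, and Tek, the gene of Tie2, had 0.81 and 0.60. Angpt1 and Angptl1 were thus both lower in adult than in young sham cartilage, but they had injury ratios of opposite sign.

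**Figure D3:**
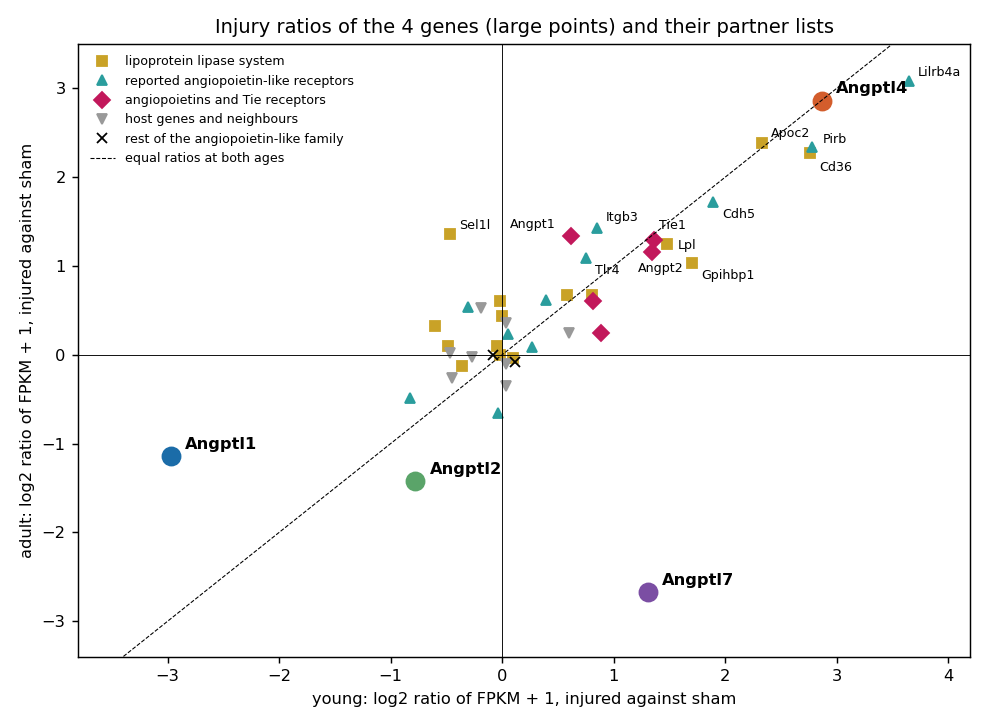
log2 ratio of FPKM + 1 for injured against sham in young (x axis) and adult mice (y axis), with the 4 genes as large points and the genes of 5 lists as small symbols. Angptl4 lies on the line of equal ratios at 2.86 and 2.86, near Apoc2, Pirb and Cd36. Angptl7, which was chosen for its opposite ratios, lies alone among the plotted genes at 1.31 and −2.68. The other genes of opposite ratios named above are not in these lists.

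Angptl4 is known as a target of PPAR factors, of hypoxia and of glucocorticoids. The list of 18 PPAR target genes also held the genes of the factors, Ppara, Ppard and Pparg. In young mice 1 of the 18 was higher after injury and 0 lower, beside 4.57% and 1.27% of all genes. In adult mice 1 was higher and 1 lower, beside 6.90% and 1.46%, and the medians were 0.10 and 0.32. Nothing is read from counts this small. Plin2, which coats lipid droplets, had ratios of 1.15 and 1.68, whereas Pdk4, the first of the list, which restrains glucose oxidation, had 0.29 and 0.35. Fabp3, the fatty acid binding protein of heart and muscle, had −0.58 and −2.25. Cpt1a, which brings fatty acids into mitochondria, had 0.94 and 0.71.

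Of 18 hypoxia response genes, 0 were higher or lower in young mice, with a median of −0.14. In adult mice 2 were higher and 0 lower, beside 6.90% and 1.46% of all genes, with a median of 0.49. The 2 higher genes, named after their values were seen, were Car9, a carbonic anhydrase, at 2.002 and Adm, a vasoactive peptide, at 1.12. Between the injured libraries 6 of the 18 were higher in adult mice and 0 lower, beside 1.80% and 3.09% of all genes. The median there was 0.65, beside −0.04 over all genes. Among the 6 was Vegfa, the first of the list and a vessel growth factor, at 1.94. The list of 10 glucocorticoid target genes also held Nr3c1, the gene of the receptor. In young mice 2 were higher and 1 lower, beside 4.57% and 1.27% of all genes. In adult mice 3 were higher and 0 lower, beside 6.90% and 1.46%, and the medians were −0.14 and −0.22. The lower gene, Dusp1, had −1.03 in young and −0.92 in adult mice. The metallothioneins Mt1 and Mt2, which bind metals, had ratios of 3.54 and 4.92 in young and 3.60 and 5.30 in adult mice. Sgk1, a kinase, had 0.09 in young and 1.17 in adult mice. Fkbp5, a chaperone of the glucocorticoid receptor, Tsc22d3, an anti-inflammatory factor, and the clock gene Per1 had 0.44, −0.97 and −0.90 in young and −0.64, −0.81 and −0.81 in adult mice.

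Of 13 other genes with a fibrinogen-like domain, 12 were above 0 in a library. In young mice 2 were higher after injury and 0 lower, beside 4.57% and 1.27% of all genes. The higher ones were the tenascins Tnc, at 1.41 in young and 0.84 in adult mice, and Tnn, at 2.16 and 0.97. In adult mice 1 was higher and 1 lower, beside 6.90% and 1.46%. The higher one was Mfap4, a microfibril protein, at −0.38 in young and 1.61 in adult mice. The lower one was the tenascin Tnxb, at −0.64 and −1.005. The medians were 0.21 and 0.15.

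The tissue also differed in the markers of its cells, and in such bulk samples fewer cells of a type and less RNA per cell cannot be told apart. The labelled cell type is the chondrocyte, and all 10 chondrocyte markers were above 0, with sums of 20239.7 and 19336 FPKM in young sham and injured cartilage and 15419 and 13001 FPKM in adult sham and injured cartilage, and with Col2a1, the main cartilage collagen, at 3173 to 9349 FPKM. Between adult and young sham, where Angptl1 had −1.57, 6 of the 10 were lower and 1 was higher, beside 10.6% and 2.66% of all genes. Their median was −1.58, and the higher one, Comp, was at 1324 FPKM in the young and 7203 FPKM in the adult library. Erythroid markers were also lower there in 7 of 9 genes, with a median of −1.88. In young injury, where Angptl1 had −2.97, 0 of the 10 chondrocyte markers were lower, with a median of −0.19. Macrophage markers were higher after injury in 10 of 10 genes at both ages, as was Angptl4. Their summed level was 189.7 FPKM in young sham and 1903 FPKM in young injured cartilage, against 311.3 and 1618 FPKM in adult mice. The injury medians of these markers were 3.53 for the young and 2.11 for the adult pair of libraries, beside 2.86 at each age for Angptl4. Adult against young injured cartilage gave a median of −0.34 for these markers and 0.71 for Angptl4. Adult against young sham gave 0.94 and 0.71. Endothelial markers were higher in 7 of 10 genes at both ages, with sums from 32.7 to 111.0 and from 40.5 to 103.4 FPKM. Adipocyte markers, with sums of 60.7 to 91.7 FPKM and Adipoq at 1.97 to 4.54 FPKM, were higher by 2-fold in 0 of 10 genes after injury at either age and lower in 0 in young and 2 in adult mice. The part of these cells in the values of Angptl4, Lpl and Pirb was not tested.

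The summed level of superficial zone and synovial lining markers was highest in adult sham cartilage, as were Angptl2 and Angptl7, although 2 of the 8 markers, Clic5 and Has1, were highest in adult injured cartilage. The sum was 3521 FPKM in young sham, 1501 FPKM in young injured, 9198 FPKM in adult sham and 5046 FPKM in adult injured cartilage. After injury 3 of 8 were lower and 0 higher in young mice, and 4 were lower and 1 higher in adult mice. Tendon and ligament markers summed to 3795, 2544, 8434 and 2714 FPKM in the same order, with 3 of 10 lower and 2 higher after injury in young and 3 lower and 1 higher in adult mice. Their medians of −0.08 and −0.15 were near 0, and most of the sum came from Fmod and Ecrg4. Skeletal muscle markers summed to 972.9, 762.5, 1852 and 513.4 FPKM. Of the 10, 5 were higher in adult than in young sham, beside 2.66% of all genes, and 8 were lower after injury in adult mice, beside 1.46%. In young mice 2 of these muscle markers were lower after injury and 0 higher.

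The skeletal muscle sum had the same order of libraries as Angptl2, from adult sham through young sham and young injured to adult injured. Most of the difference between its young sums came from Tnni2, at 340.1 FPKM in sham and 155.5 FPKM in injured cartilage. The median ratio of the muscle markers in young injury was −0.09, where Angptl2 had −0.78. The tendon and ligament sum was likewise lower in both injured than in both sham libraries. In young mice Angptl7 was higher after injury while the 3 sums were lower, and the superficial zone sum of adult injured cartilage was above that of young sham, where Angptl2 was below it. Fibroblast markers summed to 148.5, 178.5, 195.3 and 210.2 FPKM, osteoblast markers to 1580, 4068, 8730 and 11443 FPKM and erythroid markers to 9682, 18448, 6956 and 3032 FPKM. No marker with a row was at 0 in all libraries. The part of any of these cell types in the values of Angptl1, Angptl2 and Angptl7 was not tested.

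For the 8054 other genes whose mean reached 5 FPKM, the pattern over the 4 libraries was compared by the root mean square difference of log2(FPKM + 1) after each gene was centred on its own mean. The genes nearest to Angptl1 were Spon1, a spondin of the extracellular matrix, at 0.249, Hhip at 0.389, the semaphorin Sema3e at 0.448, Col15a1 at 0.492 and the sulfatase Sulf2 at 0.495. Spon1 stood at 32.3, 5.31, 15.6 and 4.71 FPKM in the young sham and injured and the adult sham and injured libraries. The genes nearest to Angptl2 were Cyr61, a matricellular protein, at 0.0719, Camkk1 at 0.0829, Bmp5 at 0.101, Enho at 0.107 and Eno3, the enolase of muscle, at 0.124. Cyr61 stood at 257.1, 165.9, 434.3 and 161.2 FPKM in the same order. The likeness rests on only 4 values per gene, and 38 genes lay within 0.25 of Angptl2.

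The genes nearest to Angptl4 were Wisp2, a matricellular protein, at 0.139, the protease inhibitor Slpi at 0.161, fibronectin, Fn1, at 0.177, the metalloproteinase Mmp19 at 0.239 and Ms4a7, a macrophage gene, at 0.271. Wisp2 stood at 3.89, 27.0, 5.63 and 45.4 FPKM in the young sham and injured and the adult sham and injured libraries. No gene lay within 0.25 of Angptl7, which was chosen for its pattern and reached a mean of 5.69 FPKM only through adult sham. The nearest were Grem1 at 0.494, the heat shock genes Hspa1b at 0.510 and Hspa1a at 0.544, which are near-identical copies whose values are uncertain, Olfml2a at 0.561 and Tmem204 at 0.571. Among the members themselves Angptl1 and Angptl2 were closest, at 0.905, and Angptl1 and Angptl4 farthest apart, at 2.59.

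**Figure D4:**
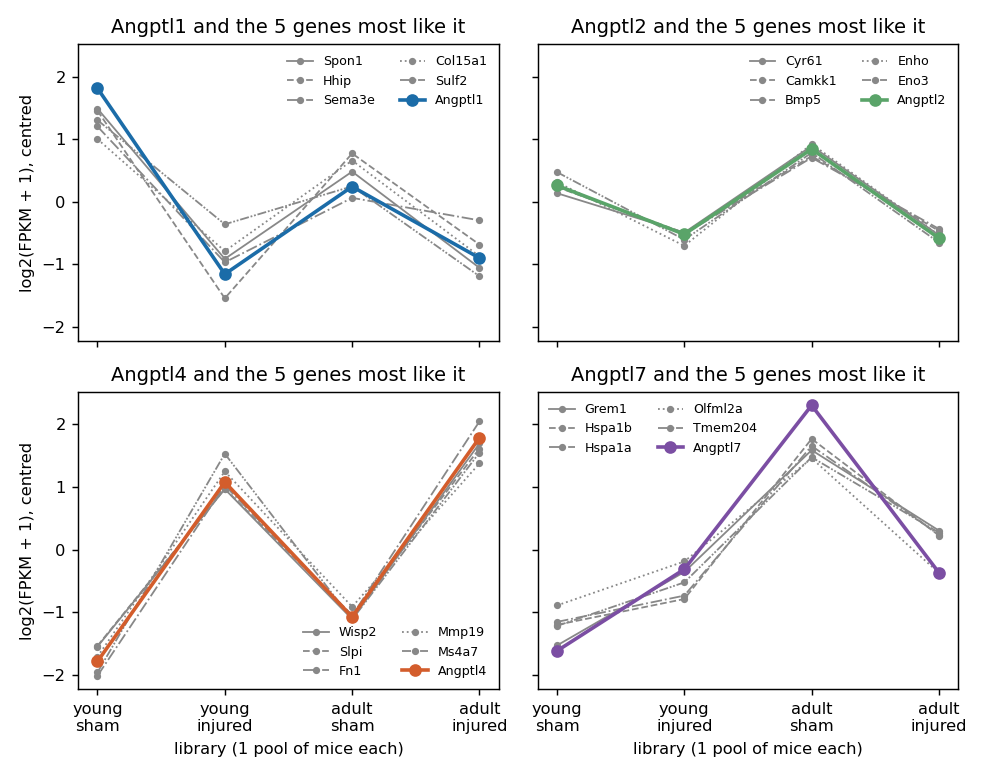
Centred log2(FPKM + 1) in the 4 libraries for each of the 4 genes (thick line) and the 5 genes with the most similar pattern (thin lines). The neighbours of Angptl2 lie within 0.124 of it by root mean square difference, and those of Angptl7 lie 0.494 to 0.571 away.

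The injury ratios of the 4 genes kept their sign under another scaling at both ages. A pseudocount cannot change the sign of a ratio between 2 libraries, so that it bears only on the size. Angptl1 in young mice and Angptl4 at both ages stayed past 2-fold under every pseudocount and scaling run. The rise of Angptl7 in young mice did not, as its ratio was 2.59 with a pseudocount of 0.1 FPKM and 0.44 with one of 5 FPKM.

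**Figure D5:**
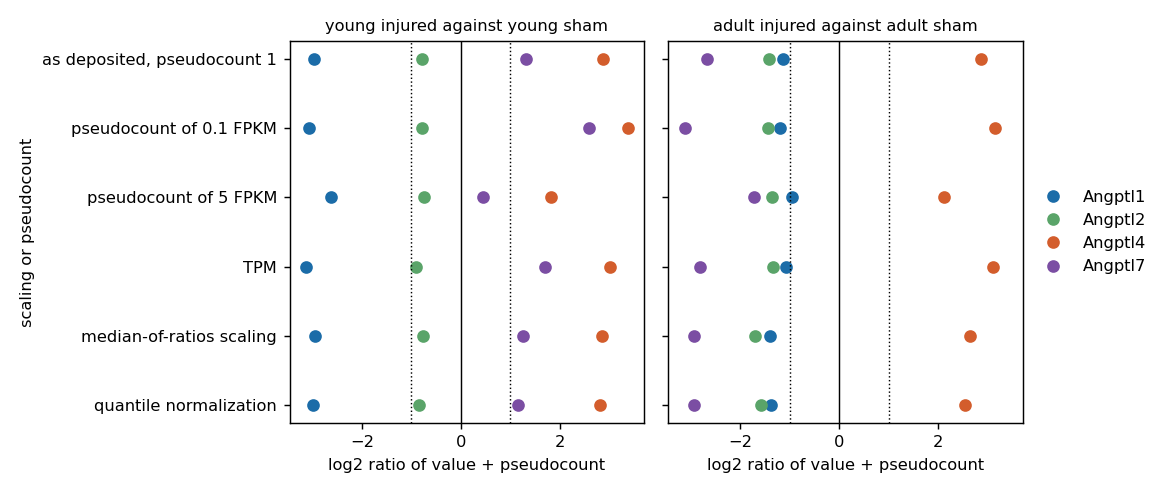
log2 injury ratios of the 4 genes in young (left) and adult mice (right) under 6 settings of pseudocount and scaling, with 2-fold as dotted lines. Points stay on their side of 0 throughout, which for the pseudocounts was fixed in advance. With a pseudocount of 5 FPKM the ratio of Angptl7 in young mice, at 0.44, and that of Angptl1 in adult mice, at −0.96, lie within 2-fold.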

How the data were processed

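RNA was poly-A selected and sequenced from strand-specific paired-end libraries of 100-base reads. The authors deposited 1 table of FPKM for 24532 genes in 4 libraries, on mm10. The submitters' processing notes name HISAT, HISAT2 2.1.0, STAR, SAMtools and StringTie 1.3.4d, without the part each played. Fragment counts were not used here. Low values of FPKM multiplied by transcript length lay partly on a grid, with a step of 38.1 and 38.4 in the young sham and injured and 32.5 and 39 in the adult sham and injured libraries. The fit to the grid was loose, with a mean cosine of 0.439 to 0.489 where 1 would be a full fit. Taking a step as 1 fragment, the depth was about 26200000, 26100000, 30800000 and 25700000 fragments. Counting errors were not calculated.

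Log2 ratios of FPKM + 1 were calculated for the 18181 genes above 0 in a library, with a threshold of 2-fold. With 1 library per group there was no test, p-value or SD. The members and the lists were chosen with earlier results of these data known. Genes named are the members, up to 6 genes of each of 9 lists in list order or as a host, partner or receptor of a member, 10 marker lists described by sums and single defining genes, and the 5 genes most like each member. List genes named outside that order (Apoc2, Cd36, Sel1l, Tek, Tie1, Plin2, Fabp3, Ppara, Ppard, Pparg, Car9, Adm, Sgk1, Dusp1, Nr3c1, Mt1, Mt2, Tnc, Tnn, Mfap4 and Tnxb) were chosen after their values were seen. List genes not named enter only the counts, medians and sums, and 1 gene is left out of the text. Pcsk3, an older name of Furin, and Ahsp had no row. Alternatives were pseudocounts of 0.1 and 5 FPKM, TPM, median-of-ratios scaling, quantile normalization, thresholds of 1.5-fold and 3-fold, and a filter of 1 FPKM. Gene positions and promoters came from RefSeq on GRCm38.p6, and 31-base words from the GENCODE transcripts. The calculations were tested on simulated data and used Python 3.11.15, numpy 2.4.6, pandas 2.3.3 and matplotlib 3.10.9.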

Additional observations from a re-analysis of the deposited data

Results flagged for a closer look

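Angptl7 moved in opposite directions after injury at the 2 ages. Its log2 ratio of FPKM + 1 was 1.31 in the single young pair of libraries and −2.68 in the single adult pair, a difference of −3.98. The difference was not tested, since each group had 1 library, and the gene was chosen for it.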

How the results depend on the processing

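No value has a replicate check, and the depth behind each FPKM is known only if 1 step is 1 fragment. No paired analysis was possible because each group had 1 library. The log2 ratios of the members were recomputed under 5 pseudocounts or scalings, and 88 of 100 values stayed on their side of 2-fold and within 1.5-fold of the reported value. None that was past 2-fold changed sign, and 8 that were not did, although a pseudocount cannot change the sign of a ratio between 2 libraries. With a pseudocount of 5 FPKM the ratio was −0.96 for Angptl1 in adult injury, 1.83 and 2.11 for Angptl4 in young and adult injury, and 0.44, −1.73, 2.15 and −2.17 for Angptl7 in young injury, adult injury, adult against young sham and the difference between the ages. With 0.1 FPKM the ratio of Angptl7 was 2.59 in young injury, 5.63 between the shams and −5.71 for the difference between the ages. TPM gave Angptl7 4.59 between the shams, and quantile normalization gave Angptl4 1.05 there, which made 2 members higher in adult sham, beside 5.04% of all genes. In young injury 1 member was higher with a pseudocount of 5 FPKM or a threshold of 3-fold, beside 1.89% and 2.02% of all genes, and 2 were lower at 1.5-fold, beside 4.81%. At 3-fold 1 member was lower in adult injury and 0 in adult against young sham, beside 0.462% and 2.78%. At 1.5-fold 2 were higher in adult sham and 1 in adult injured against young injured cartilage, beside 6.54% and 5.51%. The filter of 1 FPKM changed only the background. The causes were not tested.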
